A study of Mus musculus with 12 samples.

Results

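Heat shock chaperone genes encode proteins that bind unfolded or misfolded polypeptides and help them fold, disassemble or reach the proteasome. The 10 genes described here, of 54532 gene IDs in the deposited table, were listed by symbol, not picked by a threshold on their values, and matched to Ensembl IDs through GENCODE M21: Hspa1a, Hspa1b, Hsph1, Dnajb1 and Hsp90aa1, set as inducible members, and Hspa8, Hsp90ab1, Hspd1, Hspe1 and Dnaja1, set as constitutive members. The genes were chosen with earlier results of these data known, so counts of members called describe them and are not tests of the set. They were followed in bulk messenger RNA of mouse HSPCs, haematopoietic stem and progenitor cells, which live in bone marrow and give rise to all blood lineages. The 4 groups of 3 libraries were HSPCs of aged mice cultured with uridine, a pyrimidine nucleoside, HSPCs of aged mice cultured with vehicle, uncultured HSPCs of aged mice, and uncultured HSPCs of young mice. Every library is labelled as wild type. The genotype labels give C57BL/6 for the vehicle cultures and run from C57BL/7 to C57BL/15 over the other libraries, which looks like an automatic count of spreadsheet cells, and the true strain is therefore unsure. The sources used here give no age, uridine dose, culture time or sort of the cells.

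Heat shock proteins fall into families named for their size. HSP70 proteins (Hspa1a, Hspa1b, Hspa8) bind short hydrophobic stretches in an ATP-driven cycle. J-domain proteins (Dnajb1, Dnaja1) bring them substrates and start ATP hydrolysis, and HSP110 proteins (Hsph1) exchange the nucleotide. HSP90 proteins (Hsp90aa1, Hsp90ab1) complete the folding of kinases and steroid receptors, and Hspd1 with its lid Hspe1 forms the folding chamber of the mitochondrial matrix. Under proteotoxic stress the transcription factor HSF1 trimerises and binds heat shock elements, inverted repeats of nGAAn, in promoters of the inducible genes. The constitutive members are expressed at high levels without stress, and some of them also respond to it. Handling and dissociation of tissue can induce heat shock genes together with immediate early genes, and protein folding capacity has been studied as a property of ageing blood stem cells.

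Hspa1a and Hspa1b are near copies of each other, and their promoters are shown because both genes moved together in every comparison below. The RefSeq promoter table (GRCm38.p6) held 7 of the 10 members, Hspa1a, Hspa1b, Hsph1, Dnajb1, Hspd1, Hspe1 and Dnaja1, and the 250 bases before each listed start were searched on both strands for GAANNTTC and TTCNNGAA, the 2 ways in which a pair of adjacent heat shock units can be spelled. The capitals mark the matches. The Hspa1a stretch is chr17:34972157-34972406 on the minus strand, and that of Hspa1b is chr17:34959239-34959488 on the minus strand.
Hspa1a: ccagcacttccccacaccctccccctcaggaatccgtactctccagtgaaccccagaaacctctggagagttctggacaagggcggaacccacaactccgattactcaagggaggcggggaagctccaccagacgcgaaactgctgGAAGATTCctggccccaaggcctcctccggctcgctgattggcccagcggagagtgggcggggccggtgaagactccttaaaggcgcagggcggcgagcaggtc
Hspa1b: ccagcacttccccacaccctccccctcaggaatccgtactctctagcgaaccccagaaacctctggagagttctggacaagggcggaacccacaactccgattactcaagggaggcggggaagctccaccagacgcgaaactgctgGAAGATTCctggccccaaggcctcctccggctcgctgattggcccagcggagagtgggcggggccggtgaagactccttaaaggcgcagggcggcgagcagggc
The stretches were identical at 247 of 250 bases (98.8%), and each held 1 match, from base -104 to -97 relative to the start.

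For Hsph1, the member with the largest rise in vehicle culture, and Hspe1, which shares its promoter region with Hspd1 on the opposite strand, only 30 bases around the matches are shown. They lie at chr5:149636351-149636380 on the minus strand and chr1:55088053-55088082 on the plus strand. Both stretches overlap exons annotated in GENCODE M21, although they come before a listed RefSeq start.
Hsph1: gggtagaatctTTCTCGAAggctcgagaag
Hspe1: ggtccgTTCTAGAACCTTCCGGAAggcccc
GAANNTTC occurred before at least 1 start of 5 of the 7 members (all but Hsph1 and Dnajb1), against 6.69% of 32851 promoter stretches of the same length. TTCNNGAA occurred in 3 of 7 (Hsph1, Hspd1 and Hspe1), against 7.17% of all stretches. Either motif was found in 6 of 7, against 12.8%. At least 3 units in a row, a spelling that contains both shorter motifs, were found in Hspd1 and Hspe1, which hold the same site between them, against 0.466% of all stretches. The members have up to 3 listed starts each and the share of all stretches counts each start once, so these shares describe the sequences and are not tests.

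Library totals in the deposited counts ran from 16785065 to 19025802, and levels are given as CPM, that is counts relative to TMM-scaled library size. Of all genes 16675 passed a low-count filter, including all 10 members. A call is an adjusted p under 0.05 in edgeR's quasi-likelihood test, with Benjamini-Hochberg adjustment over all 16675 genes. No label ties the 3 libraries of a group to different mice or dishes, so p-values rest on a spread that may be technical alone. That spread was small, with a common biological coefficient of variation of 0.0438, and changes of a few percent could be called. Immunoglobulin genes and Jchain took 21.6 to 21.9% of the counts of uncultured aged libraries, while they took 0.600 to 0.615% in uridine cultures, 0.922 to 0.924% in vehicle cultures and 0.539 to 0.544% in uncultured young cells. The summed level of 9 plasma cell markers moved likewise, at 25710 to 25964 CPM in uncultured aged cells against 650 to 663 CPM in uncultured young cells, with no marker at 0 in either group. The 14 HSPC markers were all detected, with a summed level of 1887 to 1931 CPM in uridine cultures, 2056 to 2070 CPM in vehicle cultures, 1547 to 1573 CPM in uncultured aged cells and 1726 to 1758 CPM in uncultured young cells. In bulk RNA, fewer cells of a type and less RNA per cell cannot be told apart.

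**Figure D1:**
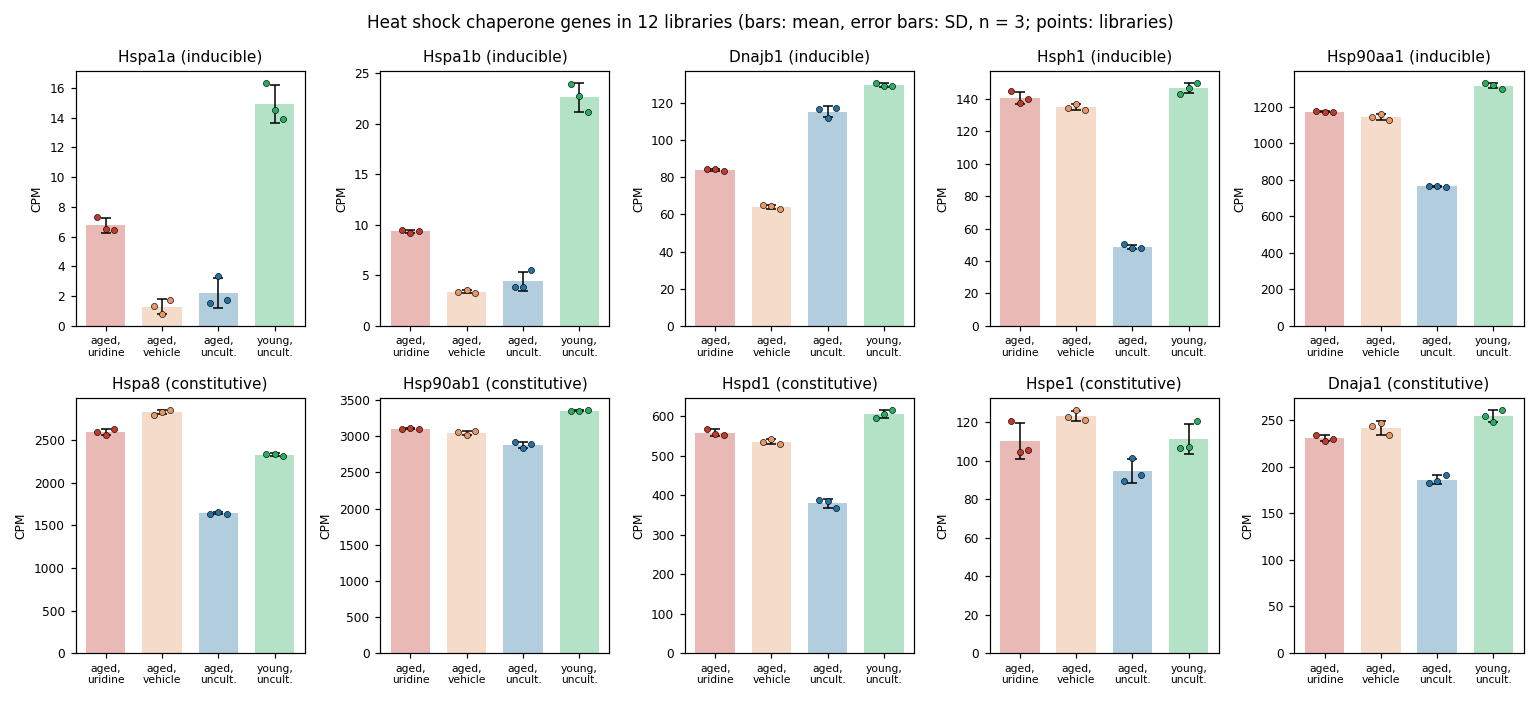
Level (CPM) of each of the 10 heat shock chaperone genes in every library, with 1 panel a gene and its own axis from 0. Bars are group means, error bars are SDs of 3 libraries and points are libraries; Hspa1a and Hspa1b are highest in uncultured young cells (14.9 and 22.6 CPM), while Hspa8 is highest in vehicle cultures (2829.9 CPM).

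Levels per kilobase of annotated exon put the members in nearly the same order in every group. Hsp90ab1 was highest, at 1037 CPM per kb in uridine cultures, 1017 in vehicle cultures, 962 in uncultured aged cells and 1119.6 in uncultured young cells. Hspa8, Hsp90aa1, Hspd1 and Hspe1 followed it in that order in all 4 groups. Dnaja1 and Dnajb1 came next and changed places, with Dnaja1 above Dnajb1 in vehicle cultures (28.0 and 20.0 CPM per kb) and below it in uncultured aged cells (21.6 and 36.0 CPM per kb). Hsph1, Hspa1b and Hspa1a came last in every group, and Hspa1a ranged from 0.431 CPM per kb in vehicle cultures to 5.03 CPM per kb in uncultured young cells. Exon length is the union of all annotated exons, so genes with long alternative exons such as Dnaja1 are set low by it.

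The stress-inducible HSP70 genes were scarce in these libraries. Their levels differed widely between groups, apart from vehicle cultures and uncultured aged cells, which lay close together. In GRCm38, the mm10 build, GENCODE M21 places the single-exon genes Hspa1a (ENSMUSG00000091971) at chr17:34969190-34972156 on the minus strand and Hspa1b (ENSMUSG00000090877) at chr17:34956436-34959238 on the minus strand. Hspa1a had 7.34, 6.50 and 6.41 CPM in the uridine cultures, 1.31, 0.769 and 1.75 CPM in the vehicle cultures, 1.53, 3.34 and 1.72 CPM in uncultured aged cells, and 16.3, 14.5 and 13.9 CPM in uncultured young cells. These levels rest on 127 to 149 counts per library in uridine cultures, 14 to 31 in vehicle cultures, 23 to 48 in uncultured aged cells and 254 to 327 in uncultured young cells. Hspa1b had 9.46, 9.21 and 9.35 CPM in the uridine cultures, 3.37, 3.52 and 3.28 CPM in the vehicle cultures, 3.86, 3.83 and 5.51 CPM in uncultured aged cells, and 23.9, 22.8 and 21.1 CPM in uncultured young cells. For both genes every young library stood above every uridine library, and every uridine library above all libraries of the other aged groups. Vehicle and uncultured aged libraries overlapped for Hspa1a, and did not for Hspa1b.

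In the bulk libraries of uncultured cells, Hspa1a was lower in aged than in young ones, by 2.77 ± 0.203 on the log2 scale (SE, adjusted p = 1.90e-14, edgeR quasi-likelihood test), with a young mean 6.79 times the aged one. Hspa1b was lower by 2.36 ± 0.136 (adjusted p = 1.62e-17), with a young mean 5.14 times the aged one. In uridine against vehicle cultures Hspa1a was higher by 2.40 ± 0.229 on the log2 scale (adjusted p = 7.78e-11), a ratio of means of 5.28, and Hspa1b by 1.46 ± 0.146 (adjusted p = 2.27e-10), a ratio of 2.76. Against uncultured young cells, the uridine cultures were lower, with log2 changes of -1.14 ± 0.165 for Hspa1a and -1.28 ± 0.117 for Hspa1b. Vehicle culture against uncultured aged cells gave the smallest and least certain changes, -0.78 ± 0.284 for Hspa1a (adjusted p = 0.0152) and -0.38 ± 0.169 for Hspa1b (adjusted p = 0.0470). The Hspa1a call was lost without vehicle replicate 2 (log2 change -0.51, adjusted p = 0.122) or without uncultured aged replicate 2 (-0.35, adjusted p = 0.316). The Hspa1b call was lost without any of the 3 vehicle libraries (adjusted p = 0.0695 to 0.110) or without uncultured aged replicate 3 (log2 change -0.18, adjusted p = 0.380).

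The proteins read from the longest reading frames of the annotated transcripts were 99.8% identical between Hspa1a and Hspa1b, at 641 of 642 positions. Of all 100-base words in their transcripts, 48.6% of those of Hspa1a and 49.9% of those of Hspa1b also occurred in another gene, mostly the partner. No source used here says how such reads were counted, so the division of reads between the pair is uncertain. The ratio of Hspa1b to Hspa1a counts was 1.39 ± 0.0882 in uridine cultures and 1.52 ± 0.0525 in uncultured young cells, with SDs over 3 libraries. At the low counts of the other groups it ranged from 1.87 to 4.57 in vehicle cultures and from 1.15 to 3.20 in uncultured aged cells.

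Hspa8, the constitutive HSP70 that also serves clathrin uncoating and chaperone-mediated autophagy, followed a different order. It lies at chr9:40800984-40810087 on the plus strand (ENSMUSG00000015656). It had 2599, 2565 and 2634 CPM in the uridine cultures, 2803, 2834 and 2853 CPM in the vehicle cultures, 1638, 1658 and 1638 CPM in uncultured aged cells, and 2344, 2339 and 2316 CPM in uncultured young cells. No groups overlapped. Hspa8 was lower in aged than in young uncultured cells (log2 change -0.50 ± 0.0160, adjusted p = 2.60e-25) and higher in vehicle culture than in uncultured aged cells (0.78 ± 0.0161, adjusted p = 1.16e-31). It was lower in uridine than in vehicle cultures (-0.12 ± 0.0159, adjusted p = 7.26e-08) and was the only member called higher in uridine cultures than in uncultured young cells (0.16 ± 0.0159, adjusted p = 1.74e-10). Its counts were 155 to 167 times those of Hspa1a and Hspa1b together in uridine cultures, 567 to 661 times in vehicle cultures, 226 to 304 times in uncultured aged cells and 58.2 to 66.2 times in uncultured young cells. A share of 62.8% of Hspa8's 100-base words recurred elsewhere, chiefly in the pseudogene Gm15459, which had 0 counts in all 12 libraries.

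Hsph1, the HSP110 exchange factor, set uncultured aged cells apart from all other groups. The gene lies at chr5:149614287-149636376 on the minus strand (ENSMUSG00000029657). It had 145, 138 and 139.8 CPM in the uridine cultures, 135, 137 and 134 CPM in the vehicle cultures, 50.3, 48.1 and 47.9 CPM in uncultured aged cells, and 143, 147 and 149.9 CPM in uncultured young cells. All uncultured aged libraries lay below the rest. The aged level was lower than the young one by 1.59 ± 0.0415 on the log2 scale (adjusted p = 5.57e-28), and vehicle culture was higher than uncultured aged cells by 1.47 ± 0.0417 (adjusted p = 3.99e-27), a ratio of means of 2.77. Uridine against vehicle cultures gave 0.06 ± 0.0362 (adjusted p = 0.197) and uridine cultures against uncultured young cells gave -0.06 ± 0.0360 (adjusted p = 0.173), neither of them called. The second of these was called lower with DESeq2 (adjusted p = 0.0242), with its size factors in edgeR (adjusted p = 0.0190) or with upper quartile scaling (adjusted p = 0.00565).

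Dnajb1, the main inducible J-domain partner of cytosolic HSP70, had 84.3, 84.4 and 83.1 CPM in the uridine cultures, 65.1, 64.5 and 62.9 CPM in the vehicle cultures, 117, 112 and 117 CPM in uncultured aged cells, and 131, 129 and 129 CPM in uncultured young cells. Both uncultured groups lay above both cultures, and no groups overlapped. The gene lies at chr8:83608193-83612653 on the plus strand (ENSMUSG00000005483). It fell in vehicle culture against uncultured aged cells by 0.85 ± 0.0407 on the log2 scale (adjusted p = 5.35e-20), where Hsph1 rose. It was higher in uridine than in vehicle cultures by 0.39 ± 0.0407 (adjusted p = 8.02e-10), lower in uridine cultures than in uncultured young cells by 0.63 ± 0.0382 (adjusted p = 1.89e-16), and lower in aged than in young uncultured cells by 0.17 ± 0.0381 (adjusted p = 0.000245). Dnajb1 had no match to either motif in the promoter stretches above, which says nothing of other spellings or distances.

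Dnaja1, the constitutive J-domain protein that works with Hspa8, had 234, 228 and 230.4 CPM in the uridine cultures, 244, 247 and 234 CPM in the vehicle cultures, 183, 185 and 191 CPM in uncultured aged cells, and 255, 248 and 261 CPM in uncultured young cells. Uncultured aged cells were again lowest, and the cultures overlapped each other. The changes on the log2 scale were -0.45 ± 0.0320 for aged against young cells (adjusted p = 6.63e-15) and 0.38 ± 0.0321 for vehicle culture against uncultured aged cells (adjusted p = 7.38e-13). Uridine against vehicle cultures gave -0.07 ± 0.0311, which was not called (adjusted p = 0.0934), and was called lower without vehicle replicate 3 (adjusted p = 0.0356) or with DESeq2 (adjusted p = 0.0182). Dnaja1 (ENSMUSG00000028410), at chr4:40722150-40737149 on the plus strand, shares 608 exon bases with Smu1 on the opposite strand, and reads of such pairs cannot be told apart where the counting ignored strand.

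The cytosolic HSP90 genes were among the most abundant members. Hsp90aa1 (ENSMUSG00000021270) lies at chr12:110690605-110702728 on the minus strand, and Hsp90ab1 (ENSMUSG00000023944) at chr17:45567775-45573271 on the minus strand. Hsp90aa1, the stress-inducible isoform, had 1178, 1171 and 1171 CPM in the uridine cultures, 1142, 1158 and 1126 CPM in the vehicle cultures, 766, 766 and 760.0 CPM in uncultured aged cells, and 1328, 1319 and 1299 CPM in uncultured young cells. Hsp90ab1, the constitutive isoform, had 3102, 3121 and 3103 CPM in the uridine cultures, 3057, 3018 and 3075 CPM in the vehicle cultures, 2922, 2839 and 2889.6 CPM in uncultured aged cells, and 3358, 3352 and 3363 CPM in uncultured young cells. Both genes had their lowest level in uncultured aged cells and their highest in uncultured young cells, with no overlap between groups. Hsp90aa1 was lower in aged than in young uncultured cells by 0.78 ± 0.0194 on the log2 scale (adjusted p = 9.93e-29), and Hsp90ab1 by 0.22 ± 0.0149 (adjusted p = 1.87e-15). In vehicle culture against uncultured aged cells Hsp90aa1 rose by 0.58 ± 0.0194 (adjusted p = 6.98e-25) and Hsp90ab1 by 0.08 ± 0.0149 (adjusted p = 1.05e-05); the Hsp90ab1 call was lost with upper quartile scaling (0.02, adjusted p = 0.365). Neither was called between uridine and vehicle cultures, at 0.04 ± 0.0191 for Hsp90aa1 (adjusted p = 0.110) and 0.03 ± 0.0148 for Hsp90ab1 (adjusted p = 0.148). Both were called higher there with limma voom (adjusted p = 0.0159 for Hsp90aa1 and 0.00405 for Hsp90ab1) or in a fit of the 6 culture libraries (0.0140 and 0.0130).

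The counts of Hsp90aa1 were 0.377 ± 0.00230 of those of Hsp90ab1 in uridine cultures, 0.375 ± 0.00875 in vehicle cultures, 0.265 ± 0.00420 in uncultured aged cells and 0.392 ± 0.00478 in uncultured young cells (SD, n = 3 each). The ratio compares counts within a library, so it does not depend on how libraries were scaled. It was lowest in each of the 3 uncultured aged libraries. The encoded proteins were 85.9% identical over the longer of them, whereas 47.5% of the 100-base words of Hsp90aa1 recurred elsewhere, mostly in its pseudogene Gm12346, and none of those of Hsp90ab1 did. Gm12346 had 3913 counts over all libraries, 1.62% of those of Hsp90aa1.

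The mitochondrial chaperonin genes lie head to head, Hspd1 (ENSMUSG00000025980) at chr1:55077835-55088243 on the minus strand and Hspe1 (ENSMUSG00000073676) at chr1:55088132-55091307 on the plus strand. Hspd1 had 569, 554 and 553 CPM in the uridine cultures, 535, 542 and 529 CPM in the vehicle cultures, 388, 385 and 367 CPM in uncultured aged cells, and 595, 607 and 615 CPM in uncultured young cells. Hspe1 had 121, 104 and 105.5 CPM in the uridine cultures, 123, 126 and 121 CPM in the vehicle cultures, 89.3, 101 and 92.5 CPM in uncultured aged cells, and 107, 107 and 120.4 CPM in uncultured young cells. Both were lowest in uncultured aged cells. The decrease with age was 0.67 ± 0.0254 on the log2 scale for Hspd1 (adjusted p = 5.14e-23) and 0.24 ± 0.0526 for Hspe1 (adjusted p = 0.000163). The rise in vehicle culture over uncultured aged cells was 0.50 ± 0.0255 for Hspd1 (adjusted p = 4.08e-19) and 0.39 ± 0.0523 for Hspe1 (adjusted p = 4.40e-08).

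Between the cultures Hspd1 and Hspe1 were called in opposite directions, at small size. Hspd1 was higher with uridine by 0.06 ± 0.0248 (adjusted p = 0.0493), a call that was lost when any 1 of the 6 culture libraries was left out (adjusted p = 0.0739 to 0.222). Hspe1 was lower with uridine by 0.16 ± 0.0502 (adjusted p = 0.0100), a call that was lost without uridine replicate 2 (adjusted p = 0.0876) or uridine replicate 3 (adjusted p = 0.0705). The counts of Hspd1 were 5.09 ± 0.327 times those of Hspe1 in uridine cultures, 4.34 ± 0.0448 times in vehicle cultures, 4.03 ± 0.280 times in uncultured aged cells and 5.45 ± 0.301 times in uncultured young cells (SD, n = 3 each). Uridine and vehicle libraries did not overlap in this ratio. The models of the 2 genes share 112 exon bases on opposite strands.

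**Figure D2:**
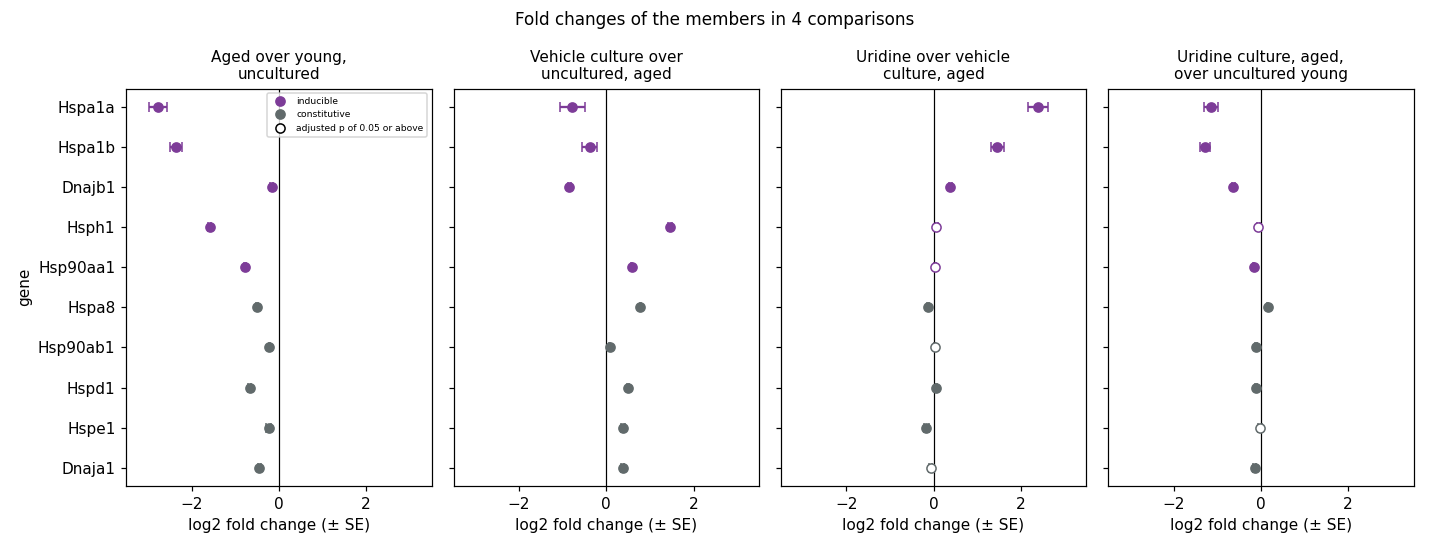
Log2 fold change of each member (± SE, horizontal axis) in 4 comparisons, inducible members above constitutive ones. Open circles are not called; all 10 members lie left of 0 for aged over young cells, while the uridine over vehicle panel has 2 large changes, Hspa1a at 2.40 and Hspa1b at 1.46.

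Seen by comparison, all 10 members were lower in uncultured aged than in uncultured young cells, where 32.1% of all genes tested were called lower and 33.2% higher. The median log2 change was -0.59 over the members, against 0.02 over all genes tested. It was -1.59 over the 5 inducible members and -0.45 over the 5 constitutive members. The members' summed level was 6124 ± 30.2 CPM in uncultured aged cells and 8292 ± 8.85 CPM in uncultured young cells (SD, n = 3 each). All 10 were still called lower when immunoglobulin genes and Jchain were left out of the scaling. Cell type markers moved with this comparison too. Plasma cell markers were higher in aged cells for 9 of 9 genes, as the immunoglobulin values above show, and B cell markers for 6 of 8, with 2 lower. Neutrophil markers were lower for 11 of 11, with a summed level of 609 to 650.5 CPM in aged against 5956 to 6155 CPM in young cells, and erythroid markers for 10 of 11. Among the 23 immediate early genes, aged cells had 15 higher and 6 lower, with a summed level of 17189 to 17426 CPM against 13170 to 13230 CPM in young cells, opposite to Hspa1a and Hspa1b. The part of these cells and genes in the members' values was not tested.

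Vehicle culture against uncultured aged cells divided the members. The 5 constitutive members, Hsph1 and Hsp90aa1 were higher, 7 in all where 35.4% of all genes tested were called higher, and Hspa1a, Hspa1b and Dnajb1 were lower, 3 where 35.1% were called lower. With limma voom, or in a fit of the 6 compared libraries, Dnajb1 alone was called lower. The median log2 change was 0.38 over the members and -0.01 over all genes tested. This comparison shares the uncultured aged libraries with the one above, so the opposite signs of the 7 members are not separate evidence. The immediate early genes, a group of 23 genes such as transcription factors switched on within minutes of a stimulus, had a summed level of 1066 to 1109 CPM in vehicle cultures against 17189 to 17426 CPM in uncultured aged cells. Of them 22 were lower and 1 was higher in vehicle culture. Hspa1a, Hspa1b and Dnajb1 were lower too. Markers of other cells were also lower in vehicle culture, for 9 of 9 plasma cell genes, 8 of 8 B cell genes, 8 of 8 T and NK cell genes and 10 of 11 erythroid genes, while 5 of 8 macrophage genes were higher and 3 lower. The part of these genes and cells in the members' values was not tested.

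In uridine against vehicle cultures, 4 members were called higher (Hspa1a, Hspa1b, Dnajb1 and Hspd1), where 20.0% of all genes tested were, and 2 were called lower (Hspa8 and Hspe1), where 18.1% were. The other 4 (Hsph1, Hsp90aa1, Hsp90ab1 and Dnaja1) were not called, with log2 changes of -0.07 to 0.06. The median log2 change was 0.05 over the members and -0.00 over all genes tested. Of the inducible members 3 were higher and none lower, and of the constitutive members 1 was higher and 2 were lower. All 23 immediate early genes were higher in uridine than in vehicle cultures, with a summed level of 4933 to 4948 CPM against 1066 to 1109 CPM, and their part in the values of Hspa1a, Hspa1b and Dnajb1 was not tested.

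Uridine cultures were also set against uncultured young cells, a comparison that crosses age, culture and uridine together. It shares its libraries with comparisons above, so it is not separate evidence. Hspa8 was higher, 1 member where 26.2% of all genes tested were called higher, and 7 members were lower, where 23.3% were. Beside Hspa1a, Hspa1b and Dnajb1, these were Hsp90aa1 (log2 change -0.17), Hsp90ab1 (-0.11), Hspd1 (-0.12) and Dnaja1 (-0.14). Hsph1 and Hspe1 were not called. The median log2 change was -0.13 over the members and -0.00 over all genes tested.

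The balance of inducible and constitutive members within a library was taken as the mean log2 CPM of the first 5 genes less that of the second 5. It was -3.40 ± 0.00561 in uridine cultures, -4.34 ± 0.114 in vehicle cultures, -3.93 ± 0.0842 in uncultured aged cells and -2.79 ± 0.0651 in uncultured young cells (SD, n = 3 each). No groups overlapped, and vehicle cultures had the lowest balance. The difference between cultures lay in the inducible mean, at 5.94 ± 0.0335 in uridine and 5.05 ± 0.0998 in vehicle cultures (log2 CPM). Of its genes, Hspa1a, Hspa1b and Dnajb1 had log2 changes of 2.40, 1.46 and 0.39. Those of Hsph1 and Hsp90aa1 were 0.06 and 0.04, neither of them called. The constitutive mean was 9.34 ± 0.0316 in uridine and 9.39 ± 0.0140 in vehicle cultures (log2 CPM). Vehicle cultures and uncultured aged cells had similar inducible means, 5.05 ± 0.0998 and 5.04 ± 0.0993, made of opposite changes of Hsph1 and Hsp90aa1 on one side and of Hspa1a, Hspa1b and Dnajb1 on the other. This score gives the scarce Hspa1a and Hspa1b the same weight as the abundant genes. Counting the pair as 1 gene left the order of the groups as it was, at -2.41, -3.03, -2.78 and -1.94 for uridine cultures, vehicle cultures, uncultured aged and uncultured young cells.

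**Figure D3:**
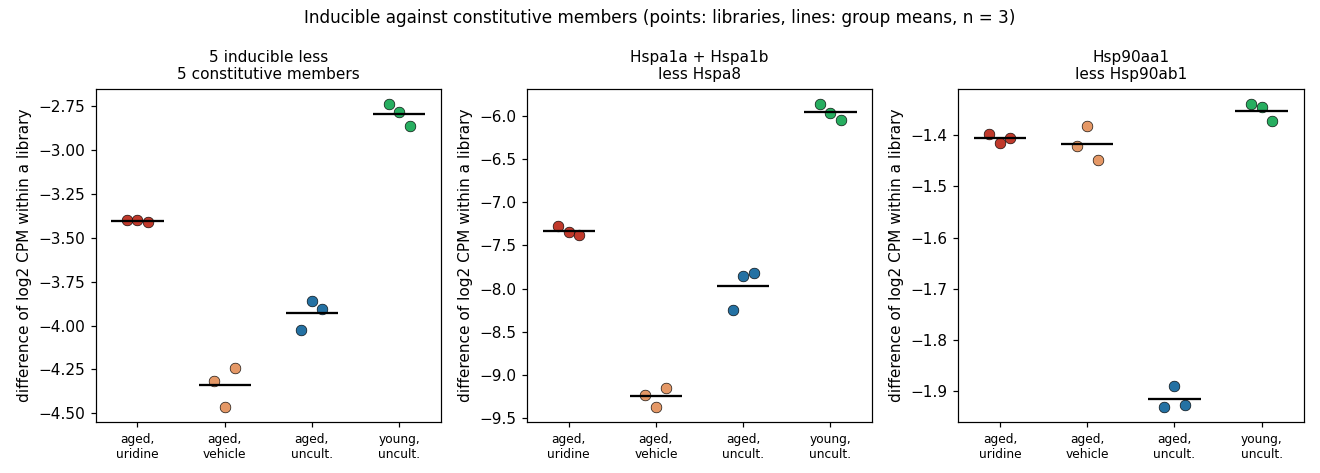
Differences of log2 CPM within each library (vertical axes) for the 5 inducible less the 5 constitutive members, Hspa1a plus Hspa1b less Hspa8, and Hsp90aa1 less Hsp90ab1. Points are libraries and lines are group means of 3; vehicle cultures are lowest in the first 2 panels (means -4.34 and -9.25) and uncultured aged cells in the third (-1.92).

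Genes far apart between uncultured young cells and vehicle cultures had similar relative positions in uridine cultures. For 144 genes at least 10 times higher in uncultured young cells than in vehicle cultures, the uridine level lay a median of 0.333 of the way from the vehicle to the young level (quartiles 0.309 and 0.362), and 134 of them (93.1%) were within 0.1 of that value. Hspa1a, Hspa1b and Dnajb1, the 3 members whose young and vehicle means were at least 2 times apart, had fractions of 0.401, 0.310 and 0.302 in that order. When the young and vehicle means were combined in the proportion 0.333, Hspa1a had 6.75 CPM in uridine cultures against a combined level of 5.81 CPM, Hspa1b 9.34 against 9.78 CPM, and Dnajb1 83.9 against 85.9 CPM. The uridine mean was likewise within 1.2 times the combined level for 22 of the 23 immediate early genes, and for 1461 of 1739 other genes with a mean of at least 5 CPM whose young and vehicle means were at least 2 times apart (84.0%). The young and vehicle means of the other 7 members were less than 2 times apart, so their positions are less certain. The fractions were 0.464 for Hspa8, 0.179 for Hsp90aa1, 0.191 for Hsp90ab1, 0.330 for Hspd1 and 0.491 for Hsph1. Among these genes, uridine libraries overlapped young ones for Hsph1 only, and overlapped vehicle ones for none. The uridine means of Hspe1 and Dnaja1 lay below both the young and the vehicle mean.

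Summed markers of neutrophils, B cells, T and NK cells, erythroid cells, and stroma and endothelium had the same order. The 11 neutrophil markers summed to 2261 to 2330 CPM in uridine cultures, 394 to 399 CPM in vehicle cultures and 5956 to 6155 CPM in uncultured young cells. The 9 markers of stroma and endothelium summed to 274 to 282 CPM in uridine cultures, 145 to 146 CPM in vehicle cultures, where Col3a1 was at 0, and 637 to 664 CPM in uncultured young cells. Macrophage markers, 8 in all, ran the other way, at 787 to 802 CPM in uridine cultures, 1258 to 1279 CPM in vehicle cultures and 306 to 316 CPM in uncultured young cells. So did the 9 plasma cell markers, at 747 to 773 CPM in uridine, 1106 to 1159 CPM in vehicle and 650 to 663 CPM in young libraries. The summed HSPC markers given above ran that way too. The part of these cells, or of RNA shared between groups, in the uridine values of the heat shock genes was not tested.

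**Figure D4:**
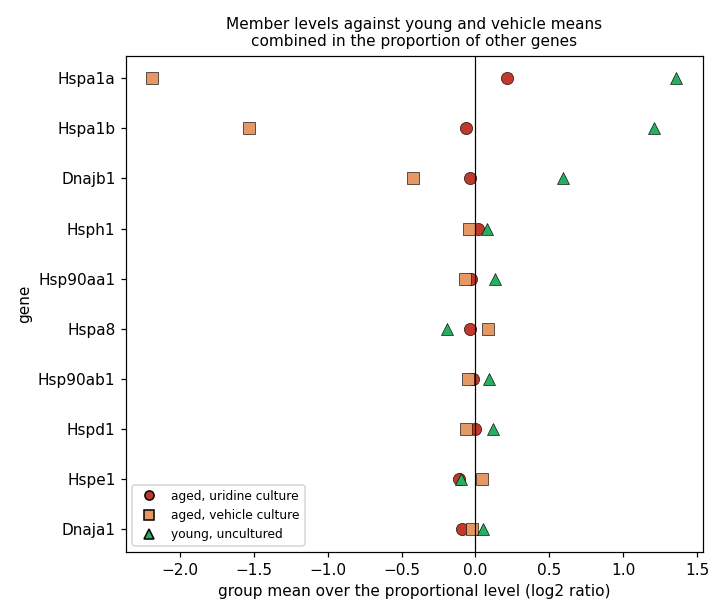
Group mean of each member over the level obtained by combining the young and vehicle means in the proportion 0.333 (log2 ratio, horizontal axis; 0 is equality). Circles are uridine cultures, squares vehicle cultures and triangles uncultured young cells; Hspa1a, Hspa1b and Dnajb1 have circles near 0 (ratios of 1.16, 0.955 and 0.977) and squares and triangles far apart, while for the other genes all 3 symbols lie close together.

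The genes whose levels were most like the mean of the inducible members over the 12 libraries were Sfpq, Nup210, Mbnl1, Notch1 and Tpm3. Likeness was Pearson's r between log2 CPM values, at 0.994, 0.994, 0.994, 0.993 and 0.992 in that order, among 10196 protein-coding genes outside the lists. It is a ranking without a test, since libraries of a group share their level and 194 genes exceeded 0.95. Notch1, for example, had means of 114 CPM in uridine cultures, 65.2 CPM in vehicle cultures, 60.9 CPM in uncultured aged cells and 189 CPM in uncultured young cells.

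Further lists, 9 in all, held chaperones and co-chaperones, and also heat shock factors, mitochondrial proteases and ubiquitin genes. Of their 102 genes, 99 were tested. In aged against young uncultured cells 35 were higher and 40 lower, in vehicle culture against uncultured aged cells 38 were higher and 43 lower, and in uridine against vehicle cultures 16 were higher and 24 lower. Their median log2 changes were 0.01, -0.02 and -0.04 in that order of comparisons. These counts can be read against the shares of all genes tested given above.

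The heat shock factors did not move as a block. Hsf1, the stress-activated factor itself, had 59.8 ± 2.41 CPM in uridine cultures and 52.8 ± 1.82 CPM in vehicle cultures (log2 change 0.18, adjusted p = 0.00545), and was lower in vehicle culture than in uncultured aged cells, at 52.8 ± 1.82 against 72.7 ± 2.28 CPM (-0.46, adjusted p = 1.05e-09). Hsf2 was lower in aged than in young uncultured cells, at 12.6 ± 2.56 against 23.9 ± 1.36 CPM (-0.93, adjusted p = 1.95e-09). Hsbp1, which binds and dissociates HSF1 trimers, was higher in aged than in young uncultured cells (0.50, adjusted p = 3.74e-10) and lower in uridine than in vehicle cultures (-0.34, adjusted p = 1.75e-06). Levels of messenger RNA do not report HSF1 activity.

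Of the 11 other HSP70 and HSP110 genes, 8 were lower and 1 was higher in aged than in young cells, where 32.1% and 33.2% of all genes tested were. Hspa4l, an HSP110 gene, had 29.2 ± 3.9 CPM in aged and 54.3 ± 4.6 CPM in young uncultured cells (log2 change -0.89, adjusted p = 4.09e-13), and rose in vehicle culture over uncultured aged cells by 1.09 (adjusted p = 9.82e-16). Hspa5, the HSP70 of the endoplasmic reticulum, was lower in aged than in young cells by 0.54 (adjusted p = 5.60e-25) and higher in uridine than in vehicle cultures by 0.36 (adjusted p = 1.20e-18). Hspa14, a ribosome-associated HSP70, was likewise lower in aged cells (-0.62, adjusted p = 8.19e-15) and higher with uridine (0.37, adjusted p = 1.62e-08). In uridine against vehicle cultures 4 of these 11 genes were higher and none was lower, where 20.0% and 18.1% of all genes were.

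The HSP90 co-chaperones and the cytosolic chaperonin gave mixed counts. Of 20 other HSP90 genes and co-chaperones 7 were higher and 10 lower in aged than in young cells, beside 33.2% and 32.1% of all genes. Stip1, which hands clients from HSP70 to HSP90, was lower (log2 change -0.56, adjusted p = 1.49e-17), as was Fkbp5, a peptidyl-prolyl isomerase that binds HSP90 (-0.64, adjusted p = 3.93e-18), whereas Hsp90b1, the HSP90 of the endoplasmic reticulum, was higher (0.34, adjusted p = 9.59e-16). Chordc1, a further HSP90 co-chaperone, rose in vehicle culture over uncultured aged cells by 1.07 (adjusted p = 1.48e-20). Among 14 chaperonin and prefoldin genes, aged cells had 2 higher and 8 lower, beside the same shares. None of them was higher and 5 were lower in uridine than in vehicle cultures, beside 20.0% and 18.1% of all genes. Among them, the chaperonin subunits Cct6a and Cct8 fell by 0.52 and 0.38 with age (adjusted p = 6.62e-18 and 3.13e-15), and the prefoldin subunit Pfdn5 rose by 1.16 (adjusted p = 1.72e-21).

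Among J-domain proteins and HSP70 regulators, changes of opposite sign stood side by side. Among 23 other J-domain genes, 11 were higher in aged than in young cells and 8 lower (33.2% and 32.1% of all genes), with Dnajc7, which binds HSP70 and HSP90, at 201 ± 4.7 CPM in aged and 120 ± 2.0 CPM in young cells (0.75, adjusted p = 5.53e-19). Dnajb9, an endoplasmic reticulum J-domain protein, had 38.6 ± 2.2 CPM in uridine and 24.7 ± 1.3 CPM in vehicle cultures (0.64, adjusted p = 1.63e-10), and was lower in vehicle culture than in uncultured aged cells by 2.08 (adjusted p = 4.91e-27). Of 13 genes listed as exchange factors and regulators of HSP70, 6 were higher and 5 lower with age, beside the same shares. In vehicle culture against uncultured aged cells 4 of them were higher and 6 lower, beside 35.4% and 35.1% of all genes. There Bag3, an HSF1 target that links HSP70 to autophagy, rose by 0.93 (adjusted p = 2.29e-11), and St13 by 0.67 (adjusted p = 1.43e-18). Dedd2 (log2 change -1.15, adjusted p = 1.22e-21) and Sil1 (-0.84, adjusted p = 2.29e-14) were lower. Dedd2 encodes a death effector domain protein and is not known as an exchange factor of HSP70, although the list counts it. Ubb, a ubiquitin gene that heat shock can also induce, was higher in aged than in young uncultured cells (0.31, adjusted p = 4.88e-13), against the direction of all 10 members. It was lower in vehicle culture than in uncultured aged cells (-0.45, adjusted p = 1.03e-17) and in uridine than in vehicle cultures (-0.10, adjusted p = 0.00154). Of 5 small heat shock protein genes tested, 3 were higher and none was lower in aged than in young cells. They were scarce, as all 7 listed summed to 15.6 to 20.0 CPM in aged and 8.45 to 10.8 CPM in young uncultured cells. Of 7 mitochondrial protease genes 1 was higher and none was lower with age. Both lists stand beside 33.2% higher and 32.1% lower of all genes.

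**Figure D5:**
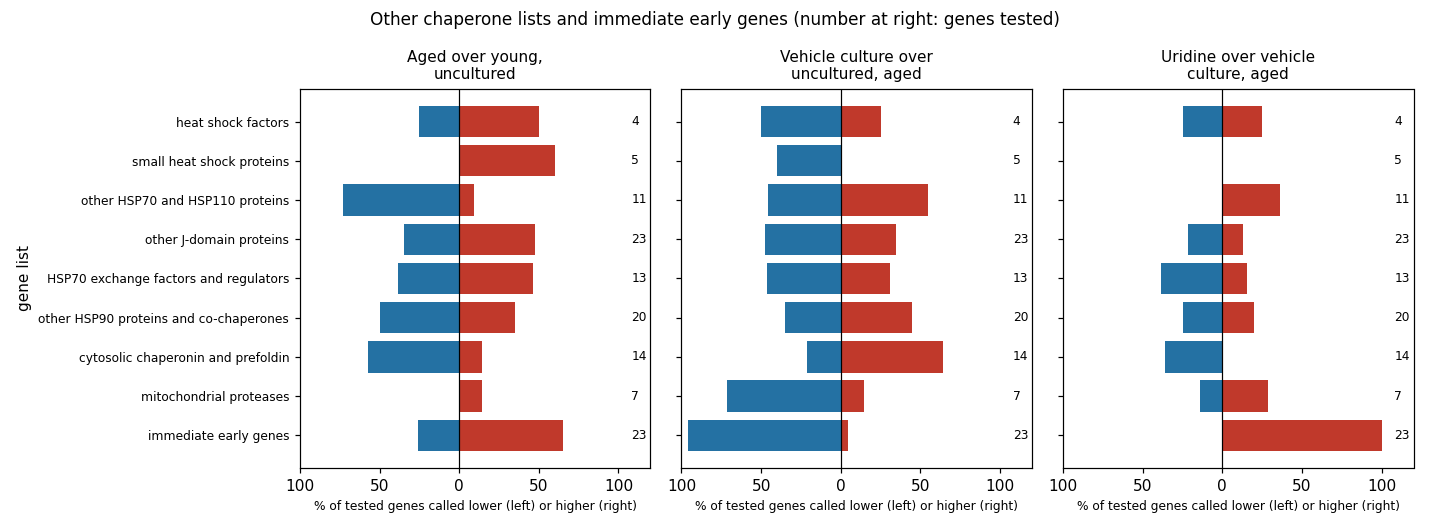
Share of the tested genes called higher (right) or lower (left) in 3 comparisons, in percent, for 8 further lists of chaperone and related genes and the immediate early genes. The number at the right of each panel is the number of genes tested. All 23 immediate early genes are higher with uridine and 22 are lower in vehicle culture, while of the 23 other J-domain genes 3 are higher and 5 lower with uridine.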

How the data were processed

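Trizol RNA was enriched for messenger RNA on poly-T beads and sequenced in paired reads of 150 bp, per the labels' protocols. The submitters' processing notes name HISAT2 2.0.5 as aligner and mm10 as build. The authors deposited raw read counts per gene for 54532 Ensembl IDs and 12 libraries. The sources used here name no counting program or annotation and do not say how repeated sequence or strand was handled. GENCODE M21 named 54495 IDs, and the remaining 37 held at most 0.00589% of a library's counts.

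Genes were filtered with filterByExpr (16675 kept), scaled with TMM factors and tested with the edgeR 4.0.16 quasi-likelihood F-test (R 4.3.3) in a model with 1 mean per group over all 12 libraries (8 residual and 26.47 prior degrees of freedom), with Benjamini-Hochberg adjustment over all genes and a threshold of 0.05. Standard errors were obtained from the F statistic. The method was checked on simulated data. Alternatives were DESeq2 1.42.0, limma 3.58.1 with voom, other scalings and filters, the replicate number as a block, a fit restricted to the 6 libraries compared, other definitions of the inducible members and leaving out each library. Identity, repeated 100-base words and exon length came from GENCODE M21 on GRCm38, the build of mm10, and promoters from RefSeq.

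The members, lists and tests were chosen with earlier results of these data known. Named were all members, up to 3 called genes a direction from each list by smallest p, with 1 gene of the lists not reported here, and the 5 genes most like the inducible members (log2 CPM with a prior count of 2, mean of at least 5 CPM). Plasma cell, immunoglobulin and immediate early genes, and the position between young and vehicle levels, had drawn attention in those earlier results. Pairs of libraries within a group differed by a chi-square of 2.27 to 3.94 per degree of freedom, so no library was counted as a repeat.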

Additional observations from a re-analysis of the deposited data

How the results depend on the processing

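Of 632 values of single members under the alternatives, 590 kept their direction and their side of the threshold, 27 were no longer called and 12 became called. The other 3 were those of Hspe1 in uridine cultures against young cells, which changed sign without a call (-0.08 to 0.04 when a library was left out). For the named genes of the wider lists, 1395 of 1472 kept both, 45 were no longer called, 9 became called and 23 changed sign without a call. All 10 members were called lower in aged than in young cells under each alternative that kept Hspa1a and Hspa1b apart. The number of members called lower in vehicle culture, 3 as reported, was 1 with limma voom and 1 in the fit of 6 libraries, and ranged from 1 (without vehicle replicate 2) to 3 when a library was left out. The number called lower with uridine against vehicle, 2 as reported, ranged from 1 (without uridine replicate 2 or 3) to 3 (without vehicle replicate 3), and 3 rather than 4 were called higher whichever culture library was left out. With uridine against vehicle, 3 to 6 members were called higher over the tools, scalings and filters. In uridine cultures against young cells, 20 genes of the further lists were called higher, against 12 with DESeq2 and 13 with upper quartile scaling. That scaling also moved the share of higher calls among all calls there to 43.5% from 52.9%. The cause was not tested. When a library was left out, the 20 became 14 to 17. With uridine against vehicle, the 16 higher and 24 lower genes of these lists became 13 to 14 and 18 to 22. No scaling moved the median of all genes by 0.1 or more.

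The balance of inducible and constitutive members depends on the choice of members. With Dnaja1, Hspd1 and Hspe1 counted as inducible it was -4.79 in uridine cultures, -5.37 in vehicle cultures, -5.11 in uncultured aged and -4.33 in uncultured young cells. With Hspa1a and Hspa1b summed it was -2.41, -3.03, -2.78 and -1.94 in that order of groups, which stayed the same.

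Libraries with the same replicate number did not deviate together from their group means (correlations of -0.0307 to 0.0207), so the numbers were not taken to pair them. With the replicate number as a block, 3 members were higher and 2 lower with uridine against vehicle, where Hspd1 lost its call (0.06, adjusted p = 0.0516), and 7 were higher and 2 lower in vehicle culture, where Hspa1b lost its call (-0.38, adjusted p = 0.0558). Hspa1a in vehicle cultures, at 14 to 31 counts a library, is the member whose level depth limits most.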
